A study of Mus musculus with 22 samples.

Results

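Wide RNA polymerase II (PolII) regions were taken from 14 lists of PolII ChIP-seq peaks of cells leaving mitosis. The peaks of the 14 lists were merged where they overlapped by 1 bp or more, which gave 165808 regions on the autosomes, and the 948 regions of 10 kb or more were kept. These regions were thus chosen by the positions of the same peaks, so their number, their width and their level of coverage are descriptions and were not tested. Only changes of coverage between stages and with auxin were tested. The rule did not use the groups, but a region can be wide only through the libraries in which it is covered. For a region that 1 group covers little, the test is therefore not independent of the rule. They were 0.572% of all merged regions, held 14.12 of 133.49 Mb and thus 10.6% of the merged bases.

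PolII was measured in G1E-ER4 cells, a subline of the GATA1-null mouse proerythroblast line G1E that carries GATA1 fused to the hormone-binding domain of the estrogen receptor, in which both CTCF alleles carried an AID-mCherry fusion and OsTiR-IRES-GFP was expressed from a retroviral vector, so that auxin degrades CTCF. All cells, controls included, were arrested in prometaphase with nocodazole. Auxin was added during the last hours of the arrest and kept after release, and control cells got none. Cells were sorted by DNA content at each stage, pMPM2-positive for prometaphase, and by mCherry, positive for controls and negative for auxin, so treatment and gate went together. The groups were early-G1 (1 h after release), with 2 control and 2 auxin libraries, mid-G1 (2 h), with 3 and 3, late-G1 (4 h), with 2 and 2, and prometaphase (0 h), with 2 and 2, whose lists the rule did not use. It is a single engineered line without its own GATA1.

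PolII starts at a promoter, often pauses just downstream, elongates through the gene body and runs on past the cleavage site before it is released. A narrow peak therefore usually marks a promoter, and a stretch of joined peaks marks a gene or a cluster of genes along which much of the body carries polymerase. Transcription largely ceases in mitosis and resumes as cells enter G1, when CTCF, an insulator protein that anchors chromatin loops, also returns to its sites.

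The sequences below are the 200 bases around the strongest summit of regions that passed a test with auxin, shown because CTCF loss is the treatment and its binding letters can be looked for in them. They are on the plus strand of mm9, and capitals mark a match to a 12-letter CTCF core motif searched on both strands.
9430008C03Rik, chr2:158187131-158187330: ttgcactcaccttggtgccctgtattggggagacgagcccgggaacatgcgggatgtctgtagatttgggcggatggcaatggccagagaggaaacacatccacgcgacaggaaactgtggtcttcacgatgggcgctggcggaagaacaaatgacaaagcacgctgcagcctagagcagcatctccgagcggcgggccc
Ccnb1ip1, chr14:51417172-51417371: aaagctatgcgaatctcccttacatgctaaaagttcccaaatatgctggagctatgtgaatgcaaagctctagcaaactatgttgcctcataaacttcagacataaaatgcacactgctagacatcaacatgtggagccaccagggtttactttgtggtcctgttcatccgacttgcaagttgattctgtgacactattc
Adrm1, chr2:179905976-179906175: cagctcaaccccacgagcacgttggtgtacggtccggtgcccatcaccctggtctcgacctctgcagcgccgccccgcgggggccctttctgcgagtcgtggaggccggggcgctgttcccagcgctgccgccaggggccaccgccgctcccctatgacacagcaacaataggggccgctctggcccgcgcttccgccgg
Amigo3/Gmppb, chr9:107955218-107955417: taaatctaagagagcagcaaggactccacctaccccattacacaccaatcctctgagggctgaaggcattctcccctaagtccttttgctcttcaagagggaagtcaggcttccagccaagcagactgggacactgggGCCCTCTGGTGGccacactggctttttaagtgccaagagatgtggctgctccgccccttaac
Intergenic near Car1, chr3:14801405-14801604: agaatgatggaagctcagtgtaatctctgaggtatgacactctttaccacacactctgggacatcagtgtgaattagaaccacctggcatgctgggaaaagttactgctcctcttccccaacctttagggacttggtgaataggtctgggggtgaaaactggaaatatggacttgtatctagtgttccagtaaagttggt

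The first window lies in an exon of the noncoding gene 9430008C03Rik, 15 bp from its start, and the Adrm1 window lies outside genes, 114 bp from the Adrm1 start. The Ccnb1ip1 window was also outside genes, 1869 bp from the Ccnb1ip1 start. The Amigo3/Gmppb window lies in an intron of Rnf123, 172 bp from the Amigo3 start, and held 1 match, on the minus strand from base 139. Over their whole length the Adrm1 region held 4 matches, the Ccnb1ip1 and Amigo3/Gmppb regions 3 each, and the 9430008C03Rik and intergenic regions 0. These letters alone do not show where CTCF binds or does not bind, and its binding was not measured here. A match was present in 1.27% of the 948 summit windows of 200 bp and in 1.61% of the windows of all 39416 regions with a peak in 7 or more lists, and per 10 kb of region there were 1.06 matches against 0.98. The median GC content was 47.1% in the wide regions and 46.7% in those 39416, with 14.5 against 12.3 CpG per kb.

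The wide regions lay on genes. A median of 85.2% of a region was inside coding genes, 520 of the 948 held the start of a coding transcript, 174 held 2 or more starts and 29 touched no coding gene. Together they overlapped 1477 coding genes, 6.94% of the 21281 annotated on the autosomes. The lead gene of a region was the coding gene with the largest overlap relative to all bases in the gene, the region or both. This choice favors genes close to the region in length. Lead genes had a median length of 19.2 kb, against 15.5 kb for all annotated coding genes. In 232 regions the lead gene was held whole. Of the 520 regions with a coding start, 376 (72.3%) had their strongest summit within 1 kb of such a start.

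Many regions ran beyond the end of the gene. The end of the lead gene lay in 646 regions, which reached a median of 5.2 kb past it, and 44 reached 10 kb or more. By what they held of the lead gene, 414 regions held its end and not its start, 232 both, 113 the start only and 160 body only. Median widths were 12795.5, 14329, 12568 and 12114 bp in that order, largest for regions with both. Regions with start and end sat on short lead genes (median 6.4 kb) and body regions on long ones (42.1 kb).

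The median width was 12878.5 bp and 131 regions were 20 kb or wider, 23 were 30 kb or wider and 3 were 50 kb or wider. The widest, 64742 bp at chr3:41360727-41425468, covered nearly all of Phf17, a PHD-finger chromatin factor, and went 4684 bp past its end. The next covered 63063 bp of the body of Mbnl1 (chr3:60341344-60404406), which encodes a splicing regulator, and 50469 bp over Dnmt1, the maintenance DNA methyltransferase, and Eif3g (chr9:20701194-20751662), which fell by 34.7 points from early-G1 to late-G1 (SE 10.6, limma adjusted p = 0.0314). They were followed by Cbfa2t3 (49597 bp), a corepressor of erythroid transcription factors, Dhx9 (48483 bp), an RNA helicase, the Bzrap1/Supt4h1 locus with the microRNA gene Mir142 (45318 bp), the Hdgf to Isg20l2 cluster (43133 bp), Pi4kb/Zfp687 (41306 bp), Runx1 (39480 bp), a master regulator of hematopoiesis, and the Anxa9 to Setdb1 cluster (39362 bp).

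The rule cut through a continuous range of widths. Rpl21 (10006 bp), Klc1/Xrcc3 (10007 bp) and Prrc2c (10016 bp) lay just inside, and Hist1h2bb/Hist1h3c (9998 bp), Srsf10 (9992 bp) and Kdsr (9988 bp) just outside. Another 57 pairs of neighboring members were at most 1 kb apart, so some genes carry more than 1 region.

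Few wide regions were a single wide peak in every list. A peak of 10 kb or more in any 1 list was found in 349 of the 948, and in all 14 lists in 4 (Anxa9/Gm10691/Lass2, Agxt2l2/Hnrnpab, Bzrap1 and Neat1, named after their values were seen). Regions were nonetheless shared, since 943 had a peak in all 14 lists, 4 in 13 lists and 1 in 10 (Grb2, Rpa1, Tmcc2 and Rad21 in 13, Gab2 in 10). Of their bases, 81.1% were under peaks of 7 or more lists, 29.8% under all 14 and 1.85% under 1 list only. A stretch of 10 kb or more in total was under 7 or more lists in 548 regions, and 19 regions had under 5 kb.

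The covered share, the percentage of a region's bases that lies under the peaks of 1 library, was the measure of how much of a region carried called PolII. Averaged over the 948 regions it was 83.4 and 87.4% in the early-G1 controls and 77.6 and 75.8% with auxin, 43.4, 79.9 and 72.2% in the mid-G1 controls and 77.0, 81.5 and 64.1% with auxin, and 72.1 and 82.4% in the late-G1 controls and 66.2 and 59.9% with auxin. Mid-G1 control replicate 1 stood far below all the others. Group means were 85.4 ± 2.8% (SD, n = 2) and 76.7 ± 1.2% (n = 2) in early-G1, 65.1 ± 19.2% (n = 3) and 74.2 ± 9.1% (n = 3) in mid-G1 and 77.3 ± 7.2% (n = 2) and 63.0 ± 4.4% (n = 2) in late-G1, control first, and without replicate 1 the mid-G1 control mean was 76.0 ± 5.4% (n = 2).

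**Figure D1:**
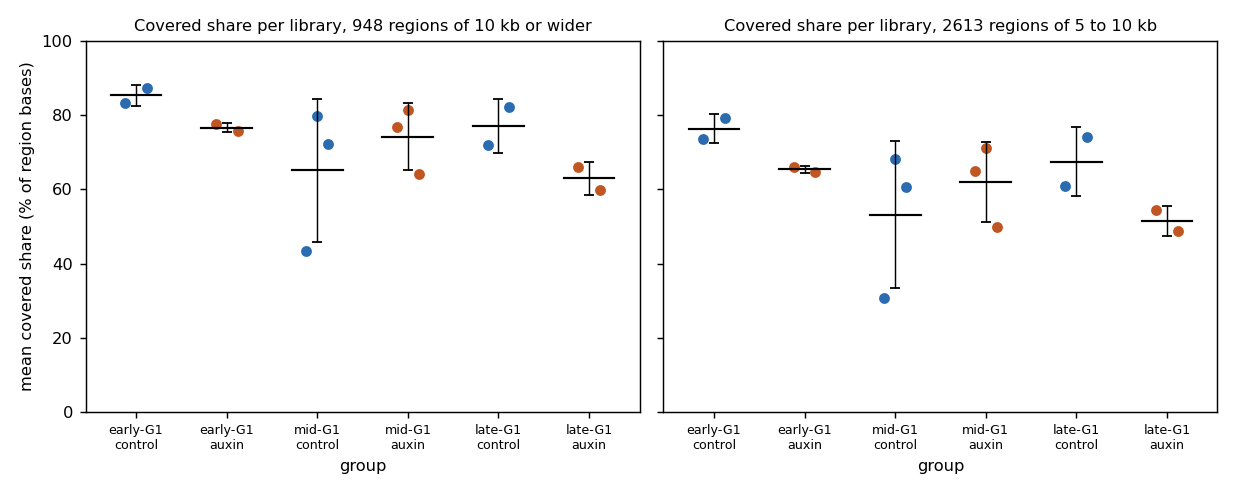
Mean covered share (% of region bases under peaks) of each post-mitotic library over the 948 regions of 10 kb or wider (left) and the 2613 regions of 5 to 10 kb (right), by group. Points are libraries, bars the group mean and whiskers 1 SD. The auxin libraries lie below the controls in early-G1 and late-G1, the mid-G1 groups overlap, and 1 mid-G1 control sits at 43.4% on the left.

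The same libraries differed in depth and in number of peaks. The lists held 50594 to 117125 peaks after mitosis and 2414 to 3918 in prometaphase, and the depth recovered from each list ran from 4.51 to 13.3 reads per kb of background after mitosis and from 4.94 to 5.96 in prometaphase. Mid-G1 control replicate 1 had the lowest depth (4.51) and the fewest peaks (50594) of the 14, and the late-G1 control with a covered share of 82.4% the highest depth (13.3). Defining markers of the erythroid lineage were mostly present. Of 14 erythroid genes, 8 had a peak over the start in all 14 lists (Gata2, Kit, Tal1, Epor, Tfrc, Klf1 and Nfe2 among them), Hba-a1, Hba-a2, Slc4a1 and Alas2 had none in any list, and of 19 genes of other cell types only Cd68 (14 lists) and Syp (6 lists) had one.

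Some regions were covered nearly end to end in every library. The highest mean shares were at Msh4/Rabggtb (97.5%), a host of small nucleolar RNAs, and at the kinase gene Pim1 (97.2%). At Pim1 (chr17:29627586-29637800) the share ran from 92.2 to 99.4% over the 14 libraries. Among the lowest were body regions of Ints3 (30.3%), a subunit of the Integrator complex, and Mtmr3 (38.1%), a lipid phosphatase, where joined short peaks of different lists made the width.

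Coverage was highest in the first 1 kb of genes, and the drop to late-G1 was largest in bodies and past gene ends. In the 0.61 Mb that make up the first 1 kb of coding genes, the covered share was 93.1 and 95.4% in early-G1 controls and 91.0 and 92.3% with auxin, and 89.9 and 90.9% in late-G1 controls and 89.9 and 88.2% with auxin. In the 10.3 Mb of the rest of coding genes it was 83.1 and 86.9% and 77.1 and 74.7% in early-G1, against 70.7 and 82.7% and 64.4 and 57.1% in late-G1. All 4 late-G1 libraries lay below both early-G1 controls in the bodies, with late-G1 control replicate 3 above the early-G1 auxin libraries. Averaged over conditions, late-G1 was lower than early-G1 by 3.2 points in the first 1 kb, 1.6 points in the 1 kb before genes, 11.7 points in bodies, 10.5 points in the 10 kb past gene ends and 1.5 points elsewhere.

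**Figure D2:**
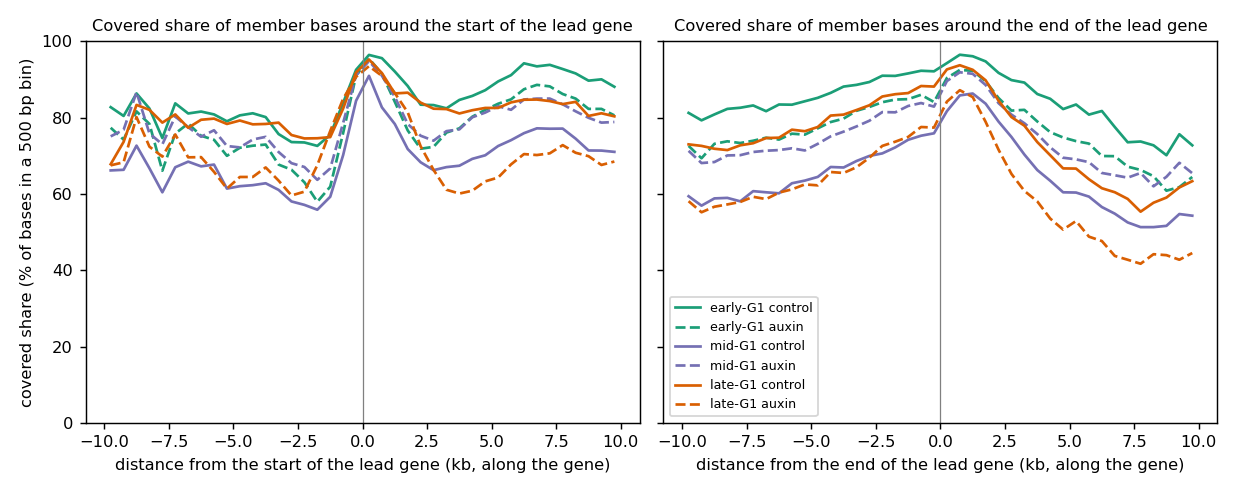
Covered share (% of member bases in 500 bp bins) around the start (left) and end (right) of the lead gene against distance in kb, as the mean over the libraries of each of the 6 post-mitotic groups. All lines peak within 500 bp downstream of the start, between 91.0 and 96.4%, and a broader maximum lies 0.5 to 1.5 kb past the end, after which coverage falls most in late-G1 auxin.

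Around the lead gene the coverage had 2 maxima. In the first 500 bp after the start it was 96.4% in early-G1 controls, 95.5% in early-G1 auxin, 91.0% in mid-G1 controls, 94.8% in mid-G1 auxin, 95.2% in late-G1 controls and 93.5% in late-G1 auxin. At 1 to 1.5 kb past the end it was 96.1, 92.3, 86.3, 91.5, 92.6 and 85.4% in the same order. At 5 to 5.5 kb past the end it was 83.4, 73.8, 60.4, 69.1, 66.6 and 52.9%. The spread between groups was thus narrow at the start and wide downstream of the gene, where the 5 to 5.5 kb bin still holds 158136 bases and the 9.5 to 10 kb bin 25124.

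The comparison of late-G1 with early-G1 asked how coverage went on after release. Each stage had its own input library in peak calling, so stage and input cannot be told apart. Averaged over control and auxin, 110 of the 948 regions were lower and 22 higher in late-G1 at an adjusted p under 0.05 (limma, Benjamini-Hochberg over 39416 regions), 11.6% and 2.32% of them, where 12.9% and 4.7% of all tested regions were called lower and higher. The median change was −10.8 points, against −7.2 points over all tested regions. All late-G1 libraries lay below all early-G1 libraries in 206 regions (21.7%) and above them in 51 (5.38%), beside 13.3% and 7.98% of all tested regions.

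Scaling set the balance of this comparison. When each library was centered on the mean of its width class, 159 regions were lower and 153 higher, beside 14.3% and 14% of all regions, and the median became 0.3 points. Of the 110 and 22 regions, 109 and 22 were called in the same direction after centering. With recovered depth as a covariate in place of centering, 429 regions were lower and 28 higher. Leaving out 1 library gave 38 (without early-G1 control replicate 2) to 313 (without mid-G1 control replicate 1) lower calls and 11 (without late-G1 auxin replicate 1) to 41 (without mid-G1 control replicate 1) higher ones.

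Kinds of region differed in their counts. Lower calls were 35 of 160 body regions (21.9%), 54 of 414 end regions (13.0%), 10 of 113 start regions (8.85%) and 9 of 232 regions with start and end (3.88%), with higher calls in 9, 9, 3 and 1. Median changes were −16.6, −14.4, −4.8 and −6.8 points. The 29 regions without a coding gene had 2 lower calls and no higher one, with a median of −3.9 points. Centered counts of lower and higher calls were 48 and 29, 84 and 55, 12 and 29, 12 and 32, and 3 and 8, so that regions with a start had more higher than lower calls there. The difference between kinds was not tested.

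The largest loss was over the body of Ctnnb1 (chr9:120846304-120858895, introns and exons of the gene of beta-catenin, the Wnt effector and adhesion protein). Its covered share was 84.6 and 93.3% in early-G1 controls, 74.7 and 76.7% in early-G1 auxin, 1.3, 43.8 and 36.8% in mid-G1 controls, 51.0, 51.2 and 33.2% in mid-G1 auxin, 19.7 and 42.3% in late-G1 controls and 11.4 and 9.1% in late-G1 auxin. Every early-G1 library was far above every later one. The change to late-G1 was −61.7 points (SE 9.3, limma adjusted p = 0.00102). No later library covered more than 51.2% of the region, so its width rested largely on early-G1 and this p-value is descriptive.

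Slc19a2 (chr1:166186009-166198467), the gene of a thiamine transporter, was lowest in late-G1. The share was 97.4 and 97.9% in early-G1 controls and 83.8 and 80.0% with auxin, 59.0, 85.9 and 71.3% in mid-G1 controls and 82.9, 90.3 and 79.0% with auxin, and 31.4 and 40.1% in late-G1 controls and 34.1 and 19.8% with auxin. The late-G1 libraries did not overlap any other group. The change from early-G1 was −58.4 points (SE 7.8, limma adjusted p = 0.000759). It was also the only member lower in late-G1 than in mid-G1 in limma (adjusted p = 0.0098). No late-G1 library covered more than 40.1% of the region, so its width rested largely on earlier libraries and these p-values are descriptive.

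Coverage of Lig1 and Rpa1, which encode replication proteins, also fell. Over Lig1 (chr7:13869150-13889754), DNA ligase 1, the share fell from 94.5 and 94.8% in early-G1 controls and 82.7 and 75.2% with auxin to 25.3 and 62.5% and 23.2 and 15.8% in late-G1. Over Rpa1 (chr11:75117571-75129058), the large subunit of the single-strand DNA binding complex, it fell from 83.6 and 95.8% and 78.8 and 74.4% to 19.7 and 54.0% and 25.4 and 13.8%. Early and late libraries did not overlap at either gene. The changes were −55.1 points (SE 10.8, limma adjusted p = 0.00355) and −54.9 points (SE 10.2, limma adjusted p = 0.00261). No late-G1 library covered more than 62.5% of the Lig1 region or 54.0% of the Rpa1 region. Both tests are thus not independent of the rule. The Necab3/1700003F12Rik region (chr2:154369024-154379558) fell by 57.2 points and a body region of Etf1, which encodes a translation release factor, fell by 54.6 points (limma adjusted p = 0.00474 and 0.00498).

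The largest gain was at Spns2. The start region of Spns2 (chr11:72292143-72304323), a sphingosine-1-phosphate transporter, had shares of 38.3 and 38.4% in early-G1 controls, 16.1 and 17.0% with auxin, 32.5, 77.3 and 75.1% and 76.6, 86.3 and 61.7% in mid-G1, and 92.5 and 97.7% and 92.7 and 88.3% in late-G1. Coverage was low in every early-G1 library and at 88.3% or more in every late-G1 library. The change was 65.4 points (SE 9.4, limma adjusted p = 0.000945). No early-G1 library covered more than 38.4% of it, so its width rested largely on later libraries and this p-value is descriptive.

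Csf2rb (chr15:78162533-78184096), the common beta chain of the IL-3, IL-5 and GM-CSF receptors, showed the same order. The share was 18.1 and 17.3% in early-G1 controls and 32.8 and 25.6% with auxin, 40.2, 79.7 and 52.2% and 97.1, 98.8 and 78.2% in mid-G1, and 88.3 and 78.6% and 92.0 and 92.7% in late-G1. The groups did not overlap between early-G1 and late-G1. The change was 64.4 points (SE 8.3, limma adjusted p = 0.000633). Here too no early-G1 library covered more than 32.8%, so the width rested largely on later libraries and the p-value is descriptive.

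The region at the end of Gab2 (chr7:104456595-104467081), a docking adaptor of cytokine receptors, reached 9631 bp past the gene and had no peak in any early-G1 library. It was covered to 39.3, 78.4 and 53.3% in mid-G1 controls, 66.8, 86.7 and 14.1% in mid-G1 auxin, 70.7 and 65.9% in late-G1 controls and 49.2 and 34.0% in late-G1 auxin. A list without a peak does not show the absence of PolII, only that no base passed the caller. The region entered the rule only through the later stages, so its gain over early-G1 is given without a test, although it is counted among the higher calls.

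Cbfa2t3 held 2 regions that both rose. In the 49597 bp region over its body (chr8:125155602-125205198) the share was 37.9 and 36.5% in early-G1 controls and 51.5 and 51.2% with auxin, 60.9, 95.7 and 72.6% and 97.1, 98.8 and 48.3% in mid-G1, and 98.3 and 98.5% and 98.1 and 98.0% in late-G1. The change was 53.9 points (SE 9.5, limma adjusted p = 0.00202), and 48.2 points (SE 9.2, limma adjusted p = 0.003) in the 15528 bp region at its start. No early-G1 library covered more than 51.5% of the body region, so its test is not independent of the rule. The glycolytic gene Gpi1 (chr7:34985355-35003017) rose by 46.9 points (SE 9.1, limma adjusted p = 0.0034). Gab2 aside, the regions named here for the largest losses and gains kept their call in all 21 alternatives run, with limma adjusted p of at most 0.0322. The alternatives used the same regions, so they do not remove the dependence on the rule.

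**Figure D3:**
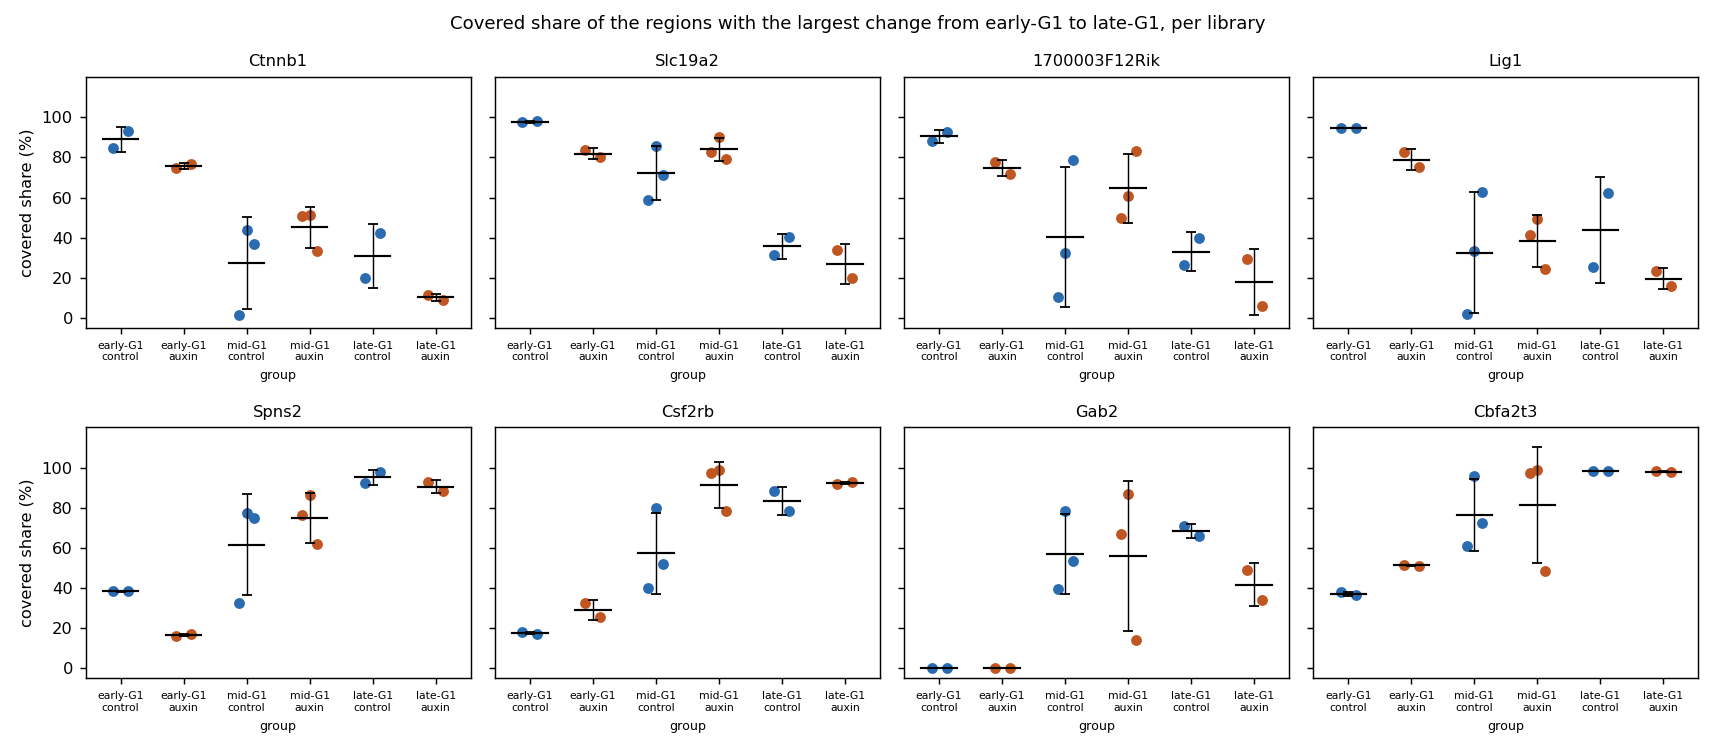
Covered share (%) per library at the 4 regions with the largest loss (top) and the 4 with the largest gain (bottom) from early-G1 to late-G1 among the called regions, by group. Gab2 is shown for its values only. Points are libraries, bars the group mean and whiskers 1 SD. At Ctnnb1 the late-G1 libraries lie between 9.1 and 42.3% and the early-G1 libraries between 74.7 and 93.3%, and at Csf2rb the order is turned round.

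Lower calls also outnumbered higher ones from early-G1 to mid-G1. From early-G1 to mid-G1, 118 regions were lower and 15 higher, beside 15.4% and 1.83% of all tested regions, with a median of −10.9 points against −11.5 over all. Centered, 117 were lower and 141 higher, beside 10.8% and 9.63% of all regions. From mid-G1 to late-G1, 1 region (Slc19a2) was lower and none higher in limma, beside 0.109% and 0.325% of all regions, 18 and 27 members, 4.75% of them against 12.8% of all regions, passed an unadjusted p of 0.05, and without mid-G1 control replicate 1 the counts were 10 and 0.

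The rank of the strongest peak, taken as −log2 of its place by fold enrichment within a library, does not use width. Of the 943 members with a peak in all 14 lists, 114 fell and 42 rose in rank from early-G1 to late-G1 (limma, 15437 regions), where 6.48% of all ranked regions fell and 5.55% rose. That is 12.1% and 4.45% of the members. Their median was −0.15 on the −log2 rank scale, against −0.01 over all.

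The auxin comparison asked how coverage depends on CTCF. Averaged over the 3 stages, 2 members were lower with auxin and 1 higher (limma adjusted p under 0.05), where 0.0634% of all tested regions were called lower and 0.071% higher. With replicate number within stage as a block in limma, no member was called lower or higher. The median change was −4.3 points, against −4.4 over all tested regions. Within single stages no member passed in limma, with 0% and 0% of all regions called lower and higher in early-G1, 0% and 0.0152% in mid-G1 and 0% and 0% in late-G1. Unadjusted p under 0.05 counted 10 lower and 2 higher members in early-G1, 2 and 31 in mid-G1 and 63 and 2 in late-G1. That is 1.27, 3.48 and 6.86% of the members, below the 7.82, 6.61 and 9.12% of all tested regions.

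The median change with auxin was −7.8 points in early-G1 (−9.4 over all regions), 8.3 points in mid-G1 (8.7 over all) and −14.3 points in late-G1 (−11.9 over all). The sign in mid-G1 rested on control replicate 1, without which the median was −1.6 points (−0.1 over all). Auxin libraries all lay below all controls in 647 members in early-G1, 1 in mid-G1 (9430008C03Rik) and 662 in late-G1, and above them in 29, 29 and 14. These are 68.2, 0.105 and 69.8% of the members below, beside 39.9%, 0.436% and 33.7% of all tested regions, and 3.06, 3.06 and 1.48% above, beside 7.12%, 7.43% and 7.59%. In early-G1 both auxin libraries were shallower (7.54 and 7.94 reads per kb) than both controls (8.12 and 11.8). The same held in late-G1 (9.22 and 8.0 against 9.73 and 13.3). Covered share may depend on depth, and the part of depth in these counts was not tested. Without mid-G1 control replicate 1 the mid-G1 counts were 49 below and 29 above, beside 7.5% and 7.56% of all regions. No member passed the test that the auxin change differs between stages, with 0% of all regions called and 12 members (1.27%) at an unadjusted p under 0.05, against 6.52% of all regions. Centered on the width class, 6 members were lower and 12 higher with auxin averaged over stages, beside 0.35% and 0.682% of all regions, and the median was 1.5 points.

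The region most reduced with auxin lay over 9430008C03Rik (chr2:158176745-158188100, 11356 bp), a noncoding gene that holds 3 SNORA71 small nucleolar RNA genes. Its covered share was 85.7 and 89.5% in early-G1 controls and 34.3 and 34.1% with auxin, 82.1, 97.0 and 91.4% in mid-G1 controls and 60.2, 59.4 and 47.9% with auxin, and 92.6 and 96.1% in late-G1 controls and 49.9 and 51.9% with auxin. The 7 controls and the 7 auxin libraries did not overlap. No auxin library covered more than 60.2% of the region, so its width rested largely on the controls and the test is not independent of the rule. The average change was −43.7 points (SE 5.6, limma adjusted p = 0.00112), from −53.4 points in early-G1, −34.3 in mid-G1 and −43.4 in late-G1, and it was called without any 1 of the 14 libraries (−45.1 to −42.4 points). With a replicate block in limma, the adjusted p of its change in covered share was 0.0959. Its strongest peak fell by 1.97 on the −log2 rank scale (SE 0.28, limma adjusted p = 0.0106). In prometaphase, which the rule did not use, 28.2 and 17.8% was covered in controls and 4.7 and 5.2% with auxin.

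The region at the start of Ccnb1ip1 (chr14:51412843-51424977), an E3 ligase of the cyclin B pathway and meiotic crossing over, was also lower. The share was 90.2 and 91.9% in early-G1 controls and 49.4 and 40.7% with auxin, 59.4, 96.7 and 85.1% and 62.0, 66.2 and 30.2% in mid-G1, and 88.7 and 99.0% and 61.0 and 44.1% in late-G1. Groups overlapped in mid-G1 through control replicate 1. No auxin library covered more than 66.2% of the region, so its test is not independent of the rule. With a replicate block in limma the adjusted p was 0.222. The change was −38.3 points (SE 7.4, limma adjusted p = 0.0441), but the call held in 1 of 14 fits that left out a library, the one without mid-G1 control replicate 1, and adjusted p reached 0.252 without late-G1 auxin replicate 2.

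The region over Adrm1 (chr2:179893126-179915735), the gene of a ubiquitin receptor of the proteasome, with parts of Osbpl2 and Lama5, was higher. The share was 46.6 and 56.1% in early-G1 controls and 77.8 and 72.6% with auxin, 32.6, 41.8 and 41.3% and 86.1, 90.2 and 72.1% in mid-G1, and 42.6 and 55.3% and 73.5 and 76.2% in late-G1. Controls and auxin libraries did not overlap. No control covered more than 56.1% of the region, so its width rested largely on auxin libraries. The test is thus not independent of the rule. The change was 31.3 points (SE 5.3, limma adjusted p = 0.0144). The call held in 5 of 14 fits that left out a library, with adjusted p up to 0.133 without early-G1 control replicate 1. With a replicate block in limma the adjusted p was 0.302.

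**Figure D4:**
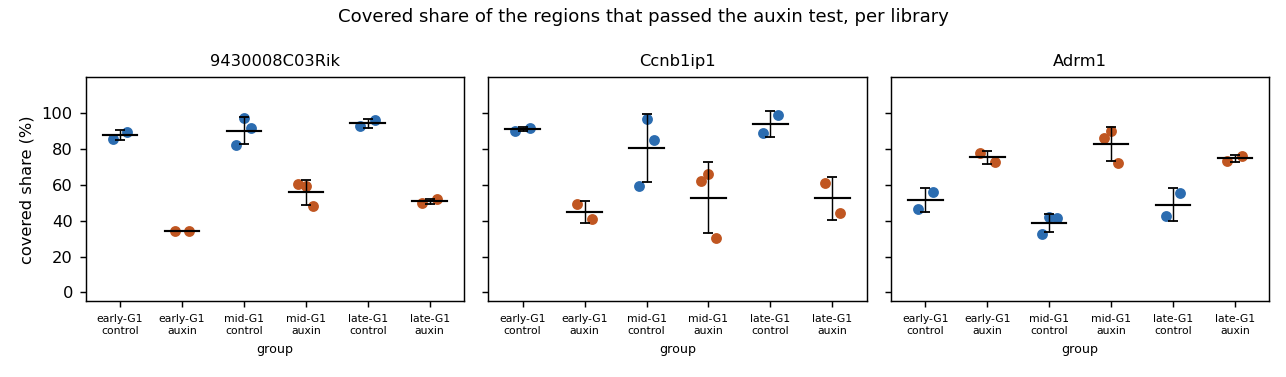
Covered share (%) per library at the 3 regions called with auxin averaged over the stages, by group. Points are libraries, bars the group mean and whiskers 1 SD. At 9430008C03Rik the controls lie between 82.1 and 97.0% and the auxin libraries between 34.1 and 60.2%, Ccnb1ip1 overlaps in mid-G1, and at Adrm1 the auxin libraries, 72.1 to 90.2%, lie above the controls, 32.6 to 56.1%.

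In rank of the strongest peak, 4 members fell with auxin and 4 rose, beside 0.285% and 0.421% of the 15437 ranked regions. With the replicate block no member was called in rank. Besides 9430008C03Rik, the members that fell were Wdr85/Zmynd19 (−2.20, SE 0.25, limma adjusted p = 0.00309), Ccnd3/Bysl, over part of the cyclin D3 gene (−1.36, SE 0.21, adjusted p = 0.0194), and the end of Dot1l, a histone H3 methyltransferase (−0.68, SE 0.11, adjusted p = 0.0253). The strongest summit of Ccnd3/Bysl lay in an exon of Bysl, 6421 bp from the nearest Ccnd3 start. At Wdr85/Zmynd19 the strongest peak had a fold enrichment over background of 50.5 and 45.3 in early-G1 controls and 41.6 and 38.1 with auxin, 30.0, 36.1 and 41.3 in mid-G1 controls and 22.5, 21.8 and 26.4 with auxin, and 37.2 and 61.2 in late-G1 controls and 27.8 and 22.9 with auxin. The controls were higher in each stage. Its covered share changed by −8.0 points (limma adjusted p = 0.795).

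Amigo3/Gmppb (chr9:107946760-107961785), where Gmppb encodes a GDP-mannose pyrophosphorylase, rose by 1.79 on the −log2 rank scale (SE 0.30, limma adjusted p = 0.0253). Its strongest peak stood at 29.1 and 26.9 fold in early-G1 controls and 41.6 and 34.5 with auxin, 21.9, 27.6 and 43.3 and 60.7, 67.3 and 46.9 in mid-G1, and 31.8 and 33.8 and 41.1 and 52.5 in late-G1. Auxin libraries were above controls in each stage. The intergenic region chr3:14790251-14804500, 11.8 kb before the start of Car1, an erythroid carbonic anhydrase, rose by 1.39 (SE 0.21, adjusted p = 0.0153). Its strongest peak was at 14.1 and 16.0 fold against 18.1 and 24.7 in early-G1, 9.6, 17.0 and 18.8 against 38.7, 36.3 and 27.2 in mid-G1, and 13.0 and 15.0 against 27.3 and 26.1 in late-G1, control first. D230037D09Rik/Moap1 (0.88, SE 0.15) and Atp5d/Midn (0.80, SE 0.13) were the others, both with a limma adjusted p of 0.0253. Without any 1 library, Wdr85/Zmynd19 kept its call in 14 of 14 fits, 9430008C03Rik in 12, the region near Car1 in 11, Ccnd3/Bysl, Dot1l and D230037D09Rik/Moap1 in 7, and Amigo3/Gmppb and Atp5d/Midn in 6.

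Wide regions more often carried a peak in prometaphase than narrower ones did. The 4 prometaphase lists had peaks in 438 and 372 members in controls and 408 and 311 with auxin, 46.2, 39.2, 43.0 and 32.8% of the 948. In at least 1 list 553 members (58.3%) had a peak and in all 4 lists 247 (26.1%), against 27.6% and 8.65% of regions of 5 to 10 kb and 13.5% and 3.02% of regions of 2 to 5 kb. A wider region has more bases for a peak to fall in. Per base, the mean covered share was 3.9, 3.1, 3.6 and 2.5% in the members, 2.3, 1.8, 2.1 and 1.6% at 5 to 10 kb and 1.2, 1.0, 1.0 and 0.7% at 2 to 5 kb, controls first, so the order held in each library. The difference between widths was not tested.

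**Figure D5:**
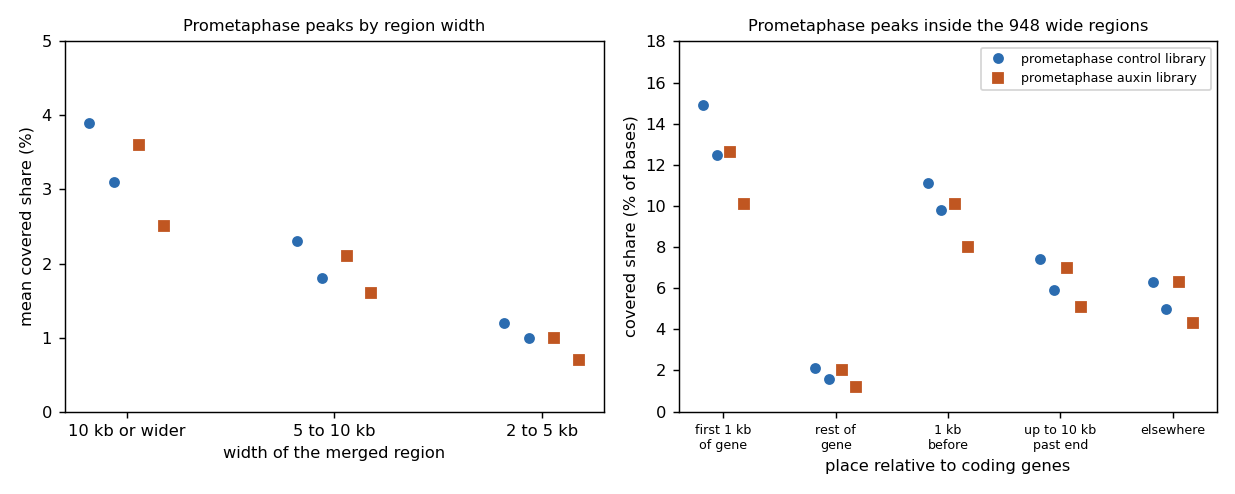
Left, mean covered share (%) of merged regions in the 4 prometaphase libraries by region width. Right, covered share (% of bases) inside the 948 wide regions by place relative to coding genes. Circles are control and squares auxin libraries. The wide regions lie highest on the left, and on the right the first 1 kb of genes is covered to 10.1 to 14.9% and the rest of genes to 1.2 to 2.1%.

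Prometaphase coverage was highest at gene starts and lowest in gene bodies. The first 1 kb of genes was covered to 14.9, 12.5, 12.6 and 10.1%, the rest of genes to 2.1, 1.6, 2.0 and 1.2%, and the 10 kb past the end to 7.4, 5.9, 7.0 and 5.1%, controls first. The 1 kb before genes was covered to 11.1, 9.8, 10.1 and 8.0%. Bases elsewhere, away from genes and these flanks, were covered to 6.3, 5.0, 6.3 and 4.3%, near the values past gene ends. A peak in at least 1 list was present in 82.8% of regions with start and end, 73.5% of start regions, 54.8% of end regions and 20.6% of body regions.

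The most covered in prometaphase was the histone cluster of Hist1h1a, Hist1h3a, Hist1h4a and Hist1h4b (chr13:23848465-23859299), where 73.8 and 72.7% lay under peaks in controls and 76.8 and 74.6% with auxin. The Hist1h1b, Hist1h2an, Hist1h2bp and Hist1h3i cluster (chr13:21865750-21882033) followed with 62.9 and 49.9% and 68.9 and 59.2%. These genes make the replication-dependent histones. Next were BC046404 with the host of Snord49 and Snord65 (54.2, 47.1, 54.2 and 49.5%), the long noncoding RNA gene Malat1 (52.1, 57.6, 51.4 and 42.9%) and Msh4/Rabggtb with the Snord45 genes (53.4, 47.0, 55.3 and 32.5%). After mitosis Malat1 was covered to between 88.7 and 97.9% and its strongest peak ranked between 2 and 91 in the 14 lists.

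The 29 regions without a coding gene were led by Neat1 (23496 bp), the scaffold RNA of paraspeckles, which was covered to 84.5 to 100% after mitosis and to 24.9, 18.8, 36.7 and 23.9% in prometaphase. Then came an unannotated region before the start of Vmn1r61 (chr7:5578838-5599661, 20824 bp, mean share 90.2%), one past the end of Peli1 (chr11:21072655-21089724, 17070 bp, 74.2%), the noncoding gene Gm11602 (16247 bp, 74.4%) and a region 0.2 kb past the end of Zfp207 (chr11:80219460-80235221, 15762 bp, 84.5%). Of the 29, 17 lay past the end of the nearest coding gene, 13 of them within 10 kb, and 12 before its start. A noncoding gene was annotated in 9.

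Gene lists chosen with earlier results of these data known were counted in the regions, beside the 6.94% of all coding genes that overlapped one. That share counts all annotated autosomal coding genes, silent ones included. A list of transcribed genes can exceed it for that reason alone, and no share over active genes was computed. Of 34 genes of splicing regulators 24 overlapped a wide region (70.6%), of 33 hematopoietic regulators 19 (57.6%), of 24 translation factors 13 (54.2%), of 17 nucleolar genes 9 (52.9%), of 23 chaperones 10 (43.5%), of 22 PolII and elongation factors 9 (40.9%) and of 77 cytosolic ribosomal protein genes 29 (37.7%). Of 26 globin and heme genes only Cpox overlapped one (3.85%). Shares were 35.0% of 20 G1 cyclin and E2F genes, 16.7% of 12 CTCF and cohesin genes, 14.9% of 67 histone genes, 13.0% of 23 mitotic genes and 11.1% of 9 small nucleolar RNA hosts, and 4 of 21 immediate early genes overlapped one. In no list was the covered share of a region called with auxin. The small nucleolar RNA host list, however, counted no gene in the regions of 9430008C03Rik, Msh4/Rabggtb and BC046404, although each holds such RNA genes. Of these, 9430008C03Rik was called lower with auxin. In rank Ccnd3/Bysl fell, but its strongest summit lay in Bysl, outside the Ccnd3 gene of the G1 cyclin list.

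Hematopoietic regulators held 24 regions, of which 4 rose to late-G1 and none fell, where 4.7% and 12.9% of all tested regions did. The median change was 2.8 points where all tested regions had −7.2. Centered, 12 rose and none fell, beside 14% and 14.3% of all regions. The 4 were both Cbfa2t3 regions, Csf2rb and the start of Hhex (chr19:37501824-37512465), a homeobox gene of early blood development, which rose by 34.8 points (SE 9.5, limma adjusted p = 0.0186). Both Cbfa2t3 regions lie on the same gene, and the tests at Csf2rb and the larger Cbfa2t3 region are not independent of the rule. Among the widest were Runx1 (39480 bp, change 5.7 points, adjusted p = 0.663), Zfpm1, the GATA1 cofactor (37435 bp, 27.6 points, adjusted p = 0.0671), Gata2 (30590 bp, −3.3 points, adjusted p = 0.771) and Klf1 with Dnase2a (29645 bp, 2.8 points, adjusted p = 0.803).

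Splicing regulators held 29 regions, 1 of which fell and none rose, where 12.9% and 4.7% of all regions did, and centered 5 fell and 1 rose. It lay in the body of Srsf4 (chr4:131434886-131447378) and fell by 47.2 points (SE 10.4, limma adjusted p = 0.0066), from 86.1, 92.8, 82.3 and 77.1% in early-G1 to 38.5, 58.9, 28.4 and 23.6% in late-G1, controls first. No late-G1 library covered more than 58.9% of it, so this test is not independent of the rule. Among the widest, Hnrnpab (25737 bp) had a change of −6.3 points that did not pass (limma adjusted p = 0.52). Ribosomal protein genes held 29 regions with a mean share of 85.3%, none of which was called in limma.

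PolII and elongation factors held 9 regions, 3 of which fell and none rose, beside the same shares of all regions, and centered 4 fell and 1 rose. They were in Supt6h, a histone chaperone of elongation (−53.3 points, SE 9.8, limma adjusted p = 0.00255), Polr2a, the largest PolII subunit (−40.2 points, SE 9.0, adjusted p = 0.00681), and the region of Ints2 and Med13 (−36.4 points, SE 10.4, adjusted p = 0.0229). The 3 histone regions had a prometaphase share of 74.5, 60.2 and 37.2%, and the last, Hist1h2ac/Hist1h2bc, fell by 37.7 points to late-G1 (SE 11.1, adjusted p = 0.0266). Its share in late-G1 was 60.5 and 34.9% in controls and 65.0 and 53.0% with auxin, below the 82.0 to 99.4% of early-G1. No late-G1 library covered more than 65.0% of it, so its test is not independent of the rule.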

How the data were processed

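The authors aligned reads to mm9 with Bowtie2 2.2.9, filtered them with SAMtools 0.1.19 and bedtools 2.27.1 for mapping quality, duplicates and blacklisted intervals, and called narrow peaks in each library separately with MACS2 2.1.0. Each deposited list gives a fold enrichment (a linear ratio over local background), the −log10 of the p-value and q-value, and a score that the authors derived from the q-value and that was not used. Narrow-peak calling can split broad signal and its power depends on depth, which was recovered from fold enrichment and p-value and tried as a covariate. Read counts were not used here. The paper states that each peak list was called over an input control of the matching stage. A single input is listed per stage, so stage and input cannot be told apart.

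Covered shares of 39416 regions with a peak in 7 or more lists were compared with limma 3.58.1 in R 4.3.3 over 6 group means, with a variance trend over log2 width and Benjamini-Hochberg adjustment, and −log2 ranks of the highest fold enrichment over 15437 regions. A p-value measures the spread between these libraries. On simulated data for the auxin comparison on 39416 regions, a change of 20 points was recovered in 0% of 100 regions and one of 40 points in 25% of 100, with 1 false call. The simulated noise was drawn independently for each region, so shifts shared by a whole library were not part of it. Changes were placed only in regions with a mean share below the 73.1% of the members. These rates therefore do not describe the members. Called means an adjusted p under 0.05. Regions were named by the coding genes whose start they hold, otherwise by overlapped genes. Those named were the widest 10, the 3 highest and 3 lowest by mean share, up to 6 called regions per direction by change among those that changed the same way in each stage or condition, up to 5 by rank, the 5 highest in prometaphase, the 5 widest without a coding gene, 3 on each side of 10 kb and up to 4 of the widest with a start from each gene list. Hist1h2ac/Hist1h2bc, Hhex, Srsf4, Zfpm1, the X-linked, less shared and PolII factor regions were named after their values were seen. Some regions that this rule names are not reported here. Members and lists were chosen with earlier results of these data known. Same-numbered libraries correlated in their deviations between −0.0514 and 0.338, so the numbers were not taken as pairs. Sequences were read from the mm9 genome.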

Additional observations from a re-analysis of the deposited data

Results flagged for a closer look

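The rule keeps autosomes. On the X chromosome, outside the comparisons above, 12 merged regions were 10 kb or wider. The widest was Hcfc1 (23067 bp, mean covered share 56.7%), and Gata1 (14740 bp), the gene of an erythroid transcription factor which is null in this line, had a mean share of 93.1% and 8.2% in prometaphase.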

How the results depend on the processing

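The number of wide regions was 4067 with peaks joined across 1 kb, 579 with bases under 2 or more lists, 831 to 946 without 1 library and, chosen after seeing the data, 367, 146, 247, 228, 242 and 91 from single groups (early-, mid- and late-G1, control before auxin). Early-G1 control means were 78.8 and 89.3% for minimum widths of 5 and 20 kb, early-G1 auxin 68.4 and 81.5% (74.9% at stricter q) and late-G1 auxin 54.6 and 69.0%. Without 1 library group means ran from 83.4 to 87.4, 75.8 to 77.6, 57.8 to 76.0, 70.5 to 79.3, 72.1 to 82.4 and 59.9 to 66.2%. A prometaphase peak was present in 53.4% at stricter q and 26.1% in all 4 lists.

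Auxin calls, 2 lower and 1 higher, became 6 and 12 centered on the width class, 1 lower with the arcsine, 1 lower at stricter q, 1 and 0 without a variance trend or with every region tested, 0 higher with the trend over the mean and 3 higher with depth as a covariate. Without 1 library they ran from 1 to 6 and 0 to 3, with 6 and 3 without mid-G1 control replicate 1, and 2 to 11 and 8 to 18 centered (chosen after seeing the data). Centered, early-G1 had 1 lower, mid-G1 2 lower and 2 higher and late-G1 3 higher, and single-stage counts were 0 to 1 without a library. Rank calls, 4 and 4, became 2 higher with normal scores and ran from 1 to 12 and 0 to 12, the 12 lower without mid-G1 control replicate 3 and the 12 higher without late-G1 control replicate 2.

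Replicate numbers were not taken as pairs, since same-numbered libraries correlated between −0.0514 and 0.338 in their deviations. These few values do not exclude pairing. With the replicate block, auxin calls were 0 and 0 in covered share and 0 and 0 in rank, and 5 and 8 when centered. The block gave 9430008C03Rik an adjusted p of 0.0959.

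Late-G1 calls, 110 lower and 22 higher, became 429 lower with depth as a covariate, 51 without a trend, 48 and 13 with every region tested and 153 higher when centered. Without 1 library lower calls were 59 and 38 (early-G1 control replicates 1 and 2), 43 and 48 (early-G1 auxin 1 and 2), 313 and 166 (mid-G1 control 1 and 2), 41 (late-G1 control 2), 59 and 39 (late-G1 auxin 1 and 2). Higher calls were 14, 13, 14 and 14 without an early-G1 library, 41 without mid-G1 control 1 and 11 without late-G1 auxin 1. Centered they were 109 to 179 and 104 to 171. Against mid-G1, centering gave 141 higher calls over early-G1, and 34 lower and 22 higher in late-G1, and leaving out mid-G1 control replicate 1 gave 37 and 10. Causes were not tested. For the named regions, 369 of the values recomputed kept direction and side of the threshold, 85 kept only direction and none reversed.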
